A study of Homo sapiens with 2 samples.

Results

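Transcripts of the MYC and MAX network were described in single cells of an untreated culture and of a culture treated with SP11. The network was taken as 10 genes given by name, MYC, MAX, MXD1, MXD3, MXD4, MXI1, MNT, MGA, MLX and MLXIP, out of 36601 genes in each matrix. All 10 were among the 12128 genes with 50 or more molecules over both libraries, which are called measured genes below. The description follows the balance of activator against antagonists, first as levels and then as shares of cells.

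MYC is a basic helix-loop-helix leucine zipper transcription factor that binds DNA only as a pair with MAX, at short elements called E-boxes, and it drives ribosome production, metabolism and cell division. MAX also pairs with MXD1, MXD3, MXD4 and MXI1 and with MNT, which recruit the SIN3 and histone deacetylase corepressors to the same elements, and with MGA, the scaffold of a variant Polycomb complex. The antagonists therefore compete with MYC for both partner and site. A parallel branch uses MLX as the partner of MLXIP, a factor also known as MondoA that responds to glucose and induces TXNIP. MYC is a central oncogene of T-cell leukemia, where NOTCH1 activates it.

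Both groups were labelled MOLT4, an established T-cell acute lymphoblastic leukemia line. One group was left untreated, and the other received SP11, which the study describes as an inhibitor of the chaperone HSP90, at 0.8 µM for 48 h. There was 1 library per group. The differences below therefore lack a replicate check and carry no p-value, and they are differences between 2 libraries, not shown to be differences between conditions. Replicates are mentioned in the study's methods, without saying whether cultures were pooled in a library. After the filters of the study 1053 of 1076 control barcodes and 852 of 864 SP11 barcodes were kept, with 19375163 and 9498802 UMIs (unique molecular identifiers, tags that each mark 1 captured RNA molecule) and medians of 17711 and 10488.5 UMIs per cell. Mitochondrially encoded UMIs made up a median of 8.94% per control cell and 5.51% per SP11 cell, and with these left out of the totals the log2 ratio of MYC given below was -0.66. The study kept fewer control cells, and a further filter that would give its number is not stated. In the matrices 114 barcodes occurred in both libraries, and the main results are also given without them. The T-lineage label was not borne out by markers: of 31 T-lineage genes, control lacked UMIs of 17 and SP11 of 20, and 30 were under 10 CPM in both. The exception was CD4, at 66.7 and 37.7 CPM, a gene that monocytes also express. All 16 myeloid markers had UMIs in both libraries, though 3 (MPO, CD14 and CSF1R) were under 10 CPM in both. The summed levels of the 16 were 3223 CPM (control) and 2984 CPM (SP11), with ELANE at 1110 and 477 CPM. Their make-up differed between the libraries: of 13 measured, 5 were at least 1.5-fold higher in SP11, LYZ among them (241 and 736 CPM), and 5 lower, with a median log2 ratio of 0.49. The libraries are therefore called control and SP11, without a cell type name.

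The E-box letters CACGTG, which read the same on both strands, were searched in RefSeq promoter windows (GRCh38.p14, 250 bases before to 50 bases after the start), because MYC, MAX and the antagonists bind this element. Windows were at hand for 9 of the 10 genes, all but MYC, and 3 held the letters, against 2396 of 27305 genes with a window (8.77%). The match in MLX lay 50 bases upstream of the start at chr17:42567038-42567067 on the plus strand, the match in MNT 193 bases upstream at chr17:2401236-2401265 on the minus strand, and the match in MXD4 238 bases upstream at chr4:2262330-2262359 on the minus strand. They are shown 5′ to 3′ on the gene's strand with the E-box in capitals, so that the element shared by the network can be seen in its own genes.
MLX: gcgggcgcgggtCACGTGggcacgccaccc
MNT: ccctgcccgggcCACGTGtgcgcgcgccgg
MXD4: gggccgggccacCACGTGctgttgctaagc
Of the MYC target genes listed for this work, 19 of 34 with a window (55.9%) held an E-box. Of these CDK4, which encodes a G1 kinase, SRM, which encodes spermidine synthase, ODC1, which encodes the first enzyme of polyamine synthesis, and LDHA, which encodes a lactate dehydrogenase subunit, are shown by the match nearest upstream of the start (101, 199, 29 and 87 bases upstream). They were chosen as well known targets, outside the rule by which other genes are named.
CDK4, chr12:57752394-57752423, minus strand: atgggtggcggtCACGTGcccagaacgtcc
SRM, chr1:11060200-11060229, minus strand: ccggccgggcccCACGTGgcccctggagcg
ODC1, chr2:10448024-10448053, minus strand: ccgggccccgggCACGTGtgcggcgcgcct
LDHA, chr11:18394464-18394493, plus strand: cagcccgactcaCACGTGggttcccgcacg
A match is only a run of letters, and binding was not measured.

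MYC, the activator of the network, was lower in the SP11 library. It was counted 2427 times in control, which is 125 CPM (counts per 1e+06 UMIs, exact Poisson 95% interval 120 to 130), and 781 times in SP11, which is 82.2 CPM (76.6 to 88.2). The log2 ratio of SP11 to control was -0.61 (95% counting interval -0.73 to -0.49), a 1.52-fold lower level. The median of all measured genes was itself at -0.35, which put MYC 0.26 below the median gene and at percentile 37.5 of all genes. Such intervals cover counting error only. Without the barcodes found in both libraries the log2 ratio was also -0.61. MYC lies on the plus strand of chr8:127735434-127742951 (GRCh38, GENCODE 44).

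The ratios of genes moved with the length of their introns, and this touched the network unevenly. In 20 bins of annotated intronic length the median log2 ratio was 0.12 in the bin of MYC, whose introns sum to 1409 bases, and -0.69 in the bin of MGA, whose introns sum to 131874 bases. Against the genes of its own bin MYC was at -0.73, so its distance to comparable genes was larger than its distance to 0. No source used here says whether reads in introns were counted, and the part of unspliced RNA in these ratios was not tested.

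MAX, the partner that MYC and its antagonists share, stood at the median of all genes. Its 1196 UMIs in control gave 61.7 CPM (58.3 to 65.3) and its 456 UMIs in SP11 gave 48.0 CPM (43.7 to 52.6). The log2 ratio was -0.36 (-0.52 to -0.21), which was -0.01 relative to the median gene and 0.23 above the genes of its intronic length. The direction of MAX therefore depended on the reference, and with DESeq2 size factors the ratio was 0.0012.

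**Figure D1:**
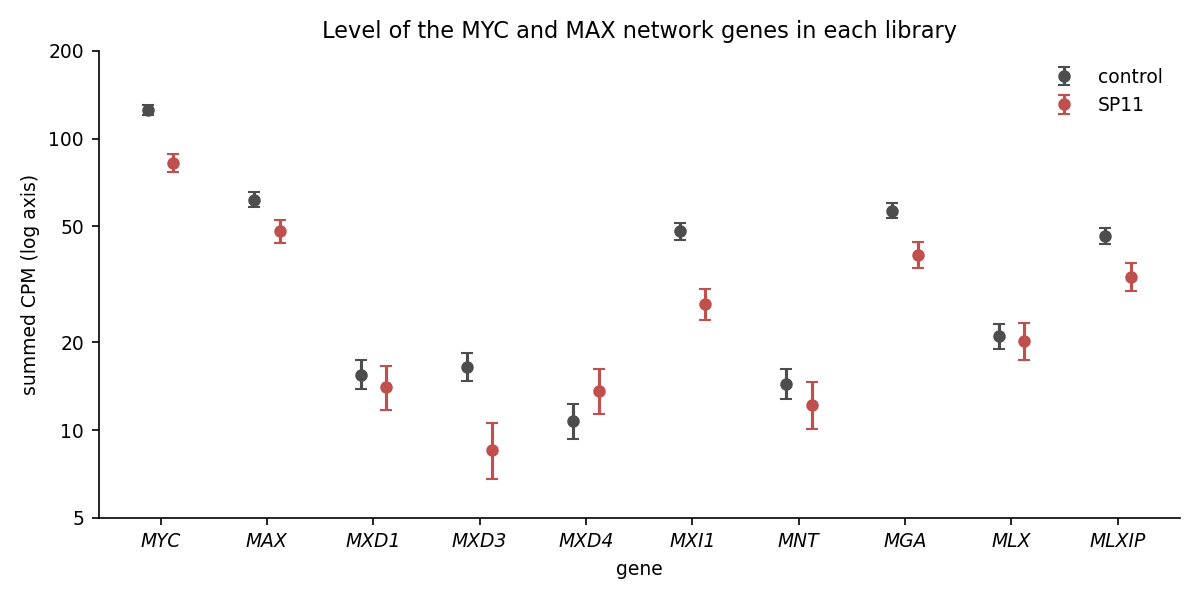
Summed level of each of the 10 genes in the control (grey) and SP11 (red) library, in CPM on a log axis, with exact Poisson 95% intervals as bars. The intervals of the 2 libraries lie apart for MYC, MAX, MXD3, MXI1, MGA and MLXIP, with SP11 lower, and they overlap for MXD1, MXD4, MNT and MLX. By CPM the median gene was itself lower in SP11, at -0.35 on the log2 scale. Relative to the median gene MYC was at -0.26, MAX at -0.01, MXD3 at -0.60, MXI1 at -0.48, MGA at -0.15 and MLXIP at -0.12. The share of all measured genes with such separate intervals was not counted.

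The 4 MXD genes did not share a direction. MXI1, a MAX partner that represses MYC targets, had 931 UMIs in control (48.1 CPM, 45 to 51.2) and 257 in SP11 (27.1 CPM, 23.8 to 30.6). Its log2 ratio was -0.83 (-1.03 to -0.63). MXD3, the member known for its level in dividing cells, had 320 UMIs in control (16.5 CPM, 14.8 to 18.4) and 81 in SP11 (8.53 CPM, 6.77 to 10.6). With a log2 ratio of -0.95 (-1.32 to -0.60) MXD3 was the lowest of the 10 genes, 1.94-fold lower than in control. MXD3 overlaps RAB24 on its own strand (40 UMIs in control and 42 in SP11). What this overlap does to the counts of either gene was not tested. MXD1, a member known to be induced as myeloid cells differentiate, had 300 UMIs in control (15.5 CPM, 13.8 to 17.3) and 133 in SP11 (14 CPM, 11.7 to 16.6). MXD1 likewise overlaps SNRNP27 on its strand (650 and 640 UMIs). The interval of the log2 ratio of MXD1, -0.15 (-0.45 to 0.15), included 0. MXD4, a member associated with cells that leave the cycle, had 208 UMIs in control (10.7 CPM, 9.33 to 12.3) and 129 in SP11 (13.6 CPM, 11.3 to 16.1). Its log2 ratio of 0.34 (0.01 to 0.66) was the only one above 0, and it was 0.69 relative to the median gene. Without the barcodes in both libraries MXD4 was at 0.44, and without the 20 cells of SP11 cluster 5 (described with the clusters) at 0.27.

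Relative to genes of like intronic length, MXD3 and MXI1 lay further apart from each other than by CPM. MXD3 has 6554 bases of intron and lay 0.99 below its bin, while MXI1 has 73854 bases and lay 0.26 below its bin. MXD4, with 7805 bases of intron, lay 0.30 above the same bin that holds MXD3. The gap between MXD4 and MXD3 is thus one between genes of similar intron length.

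The larger antagonists were lower or not resolved. MGA had 1095 UMIs in control (56.5 CPM, 53.2 to 60.0) and 379 in SP11 (39.9 CPM, 36.0 to 44.1), a log2 ratio of -0.50 (-0.67 to -0.33). Relative to its bin of intronic length MGA was at 0.19, so its direction also depended on the reference. MNT, which holds MAX in cells at rest and in cycle alike, had 279 UMIs in control (14.4 CPM, 12.8 to 16.2) and 116 in SP11 (12.2 CPM, 10.1 to 14.6). Its log2 ratio of -0.24 (-0.56 to 0.08) had an interval that included 0.

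In the MLX branch the 2 genes differed unequally by UMIs, but by similar amounts with an equal weight for every cell. MLX had 406 UMIs in control (21.0 CPM, 19.0 to 23.1) and 192 in SP11 (20.2 CPM, 17.5 to 23.3), a log2 ratio of -0.05 (-0.31 to 0.20). MLXIP had 898 UMIs in control (46.3 CPM, 43.4 to 49.5) and 318 in SP11 (33.5 CPM, 29.9 to 37.4), a log2 ratio of -0.47 (-0.66 to -0.28). The count of MLXIP per MLX went from 2.21 to 1.66, a log2 difference of -0.42 (-0.73 to -0.10). With an equal weight for every cell, rather than for every UMI, MLX was at -0.37 and MLXIP at -0.41, and against its bin of intronic length MLX was at -0.17 and MLXIP at -0.00019.

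Counted by size, 3 of the 10 genes (MYC, MXD3 and MXI1) were at least 1.5-fold lower in SP11 and 0 were at least 1.5-fold higher. Among all 12128 measured genes 38.4% passed that size downwards and 10.7% upwards, so the share of the network was near the background. Relative to the median gene, 1 member (MXD3) was at least 1.5-fold lower and 1 (MXD4) at least 1.5-fold higher, where 24.3% and 22.5% of all genes were. With TMM factors it was the same pair of genes, beside 24.5% of all genes lower and 22.2% higher, and with DESeq2 size factors 23.8% and 23.1%. The median log2 ratio of the 10 genes was -0.42, beside -0.35 for all genes.

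**Figure D2:**
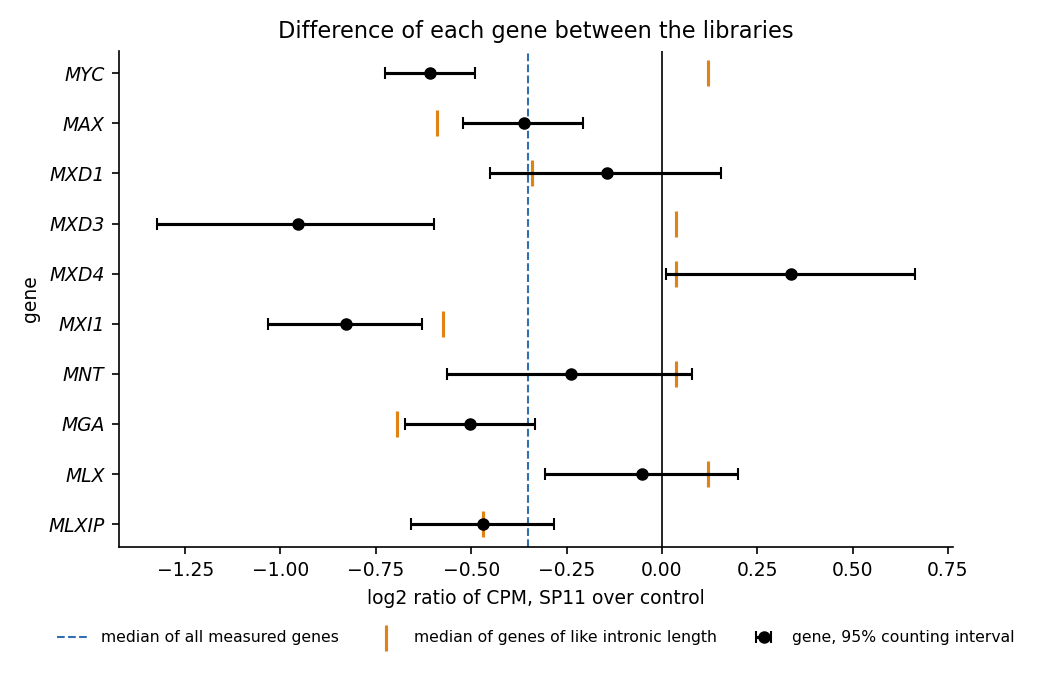
Points give each gene's log2 ratio of CPM (SP11 to control) with its 95% counting interval (bars), the median of all measured genes (dashed line, -0.35) and the median of the genes in the same bin of intronic length (orange ticks). MYC, MXD3 and MXI1 lie below both references, MXD4 lies above 0, and MAX and MGA lie above their tick but below 0.

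By UMIs alone the balance of MYC against its antagonists differed by less than its counting interval, but this depended on intronic length. MYC had 0.775 UMIs for each UMI of the 6 antagonists together in control (2427 against 3133) and 0.713 in SP11 (781 against 1095). The log2 difference was -0.12 (-0.27 to 0.04), an interval that included 0. With the bin of intronic length subtracted from each gene, a calculation added after seeing the data, the difference was -0.68. Against their bins MYC was at -0.73 and the antagonists had a median of -0.03. Summed, the antagonists had 162 CPM in control and 115 in SP11, with a log2 ratio of -0.49 (-0.59 to -0.39). MYC per antagonist UMI within a library does not depend on the library total, but the log2 ratio of the summed antagonists does. Without the barcodes in both libraries the log2 difference in MYC per antagonist UMI was -0.13. With single antagonists left out this difference went from -0.04 (without MXD4) to -0.24 (without MXI1). Against the 4 MXD genes alone MYC went from 1.38 to 1.30, a log2 difference of -0.08 (-0.26 to 0.10).

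Against single partners the picture was mixed. MYC per MAX was 2.03 in control and 1.71 in SP11 (log2 difference -0.24, -0.44 to -0.05). MYC per MXD4 was 11.7 in control and 6.05 in SP11 (-0.95, -1.29 to -0.60), and MYC per MXD1 was 8.09 and 5.87 (-0.46, -0.79 to -0.13). MYC per MXD3 pointed the other way, from 7.58 to 9.64 (0.35, -0.03 to 0.74), with an interval that included 0. A UMI was taken as 1 molecule without division by gene length, so levels are not compared between genes here. The differences between libraries also moved with intronic length, since the bin medians were 0.12 for MYC, -0.34 for MXD1, -0.59 for MAX and 0.04 for MXD3 and MXD4.

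Within the antagonists the make-up of the transcripts differed between the libraries. MGA gave 34.95% of the antagonist UMIs in control (33.3 to 36.6, exact binomial 95% interval) and 34.6% in SP11 (31.8 to 37.5). MXI1 gave 29.7% in control (28.1 to 31.4) and 23.5% in SP11 (21.0 to 26.1). MXD4 gave 6.64% in control (5.79 to 7.57) and 11.8% in SP11 (9.93 to 13.8). MXD3 was at 10.2% in control (9.18 to 11.3) and 7.40% in SP11 (5.92 to 9.11). MXD1 went from 9.58% to 12.1% and MNT from 8.91% to 10.6%, with overlapping intervals. The count of MXD4 per MXD3 was 0.65 in control and 1.59 in SP11, a log2 difference of 1.29 (0.80 to 1.79), the largest among the ratios of this kind that were computed. That pair was looked at after the values of both genes were known.

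**Figure D3:**
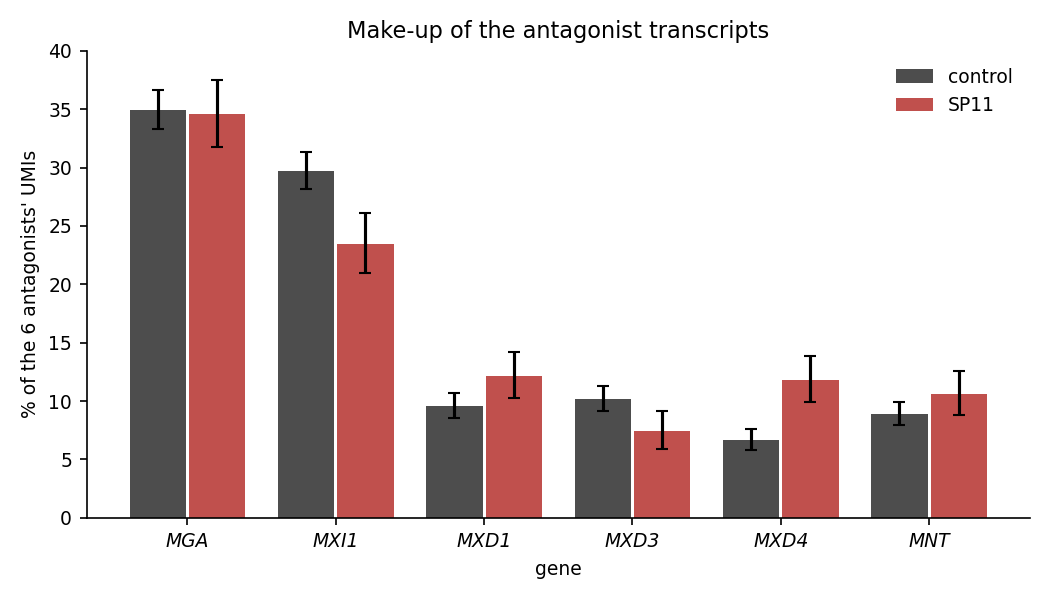
Share of the UMIs of the 6 antagonists that each one gave, in percent, in control (grey) and SP11 (red), with exact binomial 95% intervals. MGA gave about the same share in both libraries, MXI1 gave less in SP11 (29.7% and 23.5%), and MXD4 gave more (6.64% and 11.8%).

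The share of cells with a transcript was compared after each cell had been thinned to 4400 UMIs, because SP11 cells were shallower. This kept 963 control and 769 SP11 cells and left out 90 and 83. A MYC UMI was then present in 38.1% of control cells (35 to 41.3) and in 28.6% of those treated with SP11 (25.4 to 31.9). The shares averaged over all possible draws were 38.8% and 27.8%, and those before thinning were 71.8% and 47.7%. MXI1 was found in 20.2% of control (17.8 to 22.9) and 12.1% of SP11 (9.87 to 14.6). For MYC and MXI1 the intervals lay apart at 2000, 4400 and 8000 UMIs per cell. MAX was found in 22.8% (20.2 to 25.6) and 17.0% (14.4 to 19.9), with intervals apart at 4400 UMIs but not at the other depths. Over all possible draws its shares at 4400 UMIs were 22.7% and 18.8%, closer together than in the draw used. MGA was found in 20.2% and 15.2% and MLXIP in 18.9% and 15.9%, with overlapping intervals. At 8000 UMIs the intervals of MGA lay apart (33.5% and 26.3%).

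The rarer members were close to the limit of this depth. Shares of MXD1, MXD3, MXD4 and MNT lay between 2.47% and 7.67% in both libraries, and MLX was found in 8.83% and 8.19%. MXD3 was found in 5.09% of control (3.79 to 6.67) and 2.47% of SP11 (1.49 to 3.83), with intervals that just overlapped. Averaged over all possible draws the shares were 5.91% and 3.54%. No cell class that lacks these genes could be told from the files, so the share that free RNA gives by itself was not measured.

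**Figure D4:**
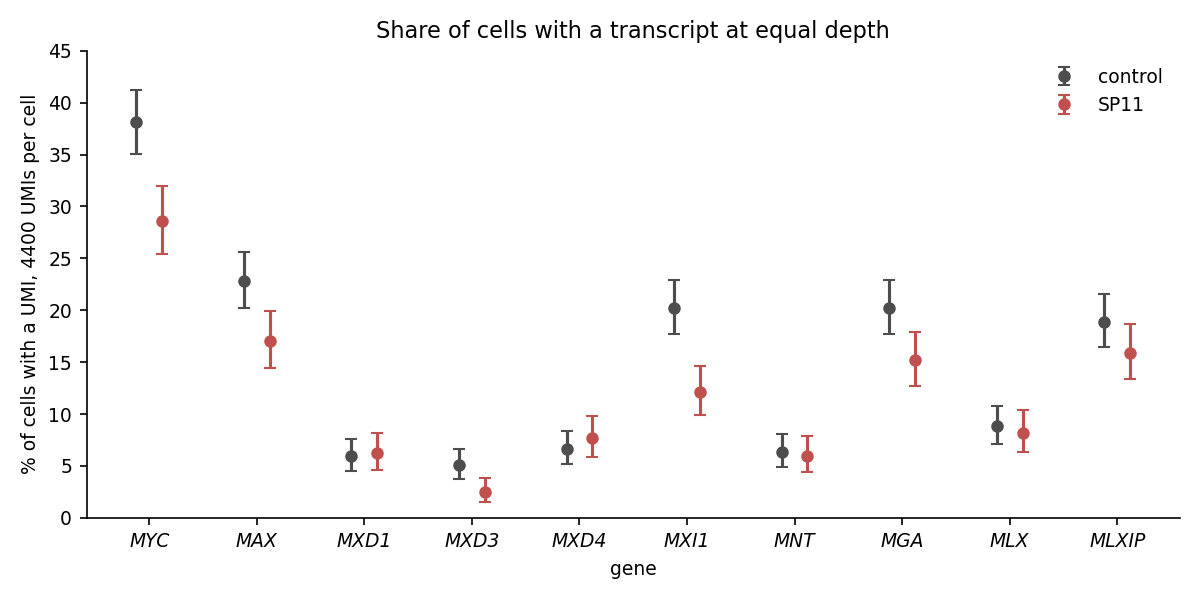
Share of cells with at least 1 UMI of each gene after thinning to 4400 UMIs per cell, in percent, in control (grey, 963 cells) and SP11 (red, 769 cells), with exact binomial 95% intervals. In the draw shown the intervals lie apart for MYC, MAX and MXI1, and the shares of MXD1, MXD3, MXD4, MNT and MLX lie under 10% in both libraries. How often intervals lie apart among all measured genes was not counted.

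The variance of counts from cell to cell exceeded the mean most for MYC, but this measure grows with the level, so the members are not ranked by it. At 4400 UMIs the variance of MYC counts was 1.27-fold the mean for control and 1.30-fold for SP11, where pure counting gives 1. The other 9 genes were between 0.935 and 1.11 in both libraries. Cells with 3 or more MYC UMIs made up 3.22% of control (2.20 to 4.54) and 2.08% of SP11 (1.19 to 3.36), with overlapping intervals. The highest MYC count in a cell before thinning was 17 in control and 9 in SP11.

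MYC and antagonist transcripts met in the same cells about as often as their shares gave by multiplication. In control 18.7% of cells (16.3 to 21.3) had both a MYC UMI and an antagonist UMI, where the product of the shares was 19.4%. In SP11 11.2% (9.04 to 13.6) had both, where the product was 11.6%. Cells with neither made up 29.8% of control (26.9 to 32.8) and 42% of SP11 (38.5 to 45.6). MYC UMIs outnumbered antagonist UMIs in 24.0% of control (21.3 to 26.8) and 20.3% of SP11 (17.5 to 23.3). The reverse held in 36.3% (33.3 to 39.5) and 31.3% (28.1 to 34.7). MYC and MAX were seen together in 9.55% of control (7.77 to 11.6, product 8.71%) and 4.03% of SP11 (2.76 to 5.67, product 4.87%).

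Levels were then set by cell cycle phase, which was called in each library from 43 S and 54 G2M genes that do not include the members. Control held 336 G1, 352 S and 365 G2M cells, and SP11 held 228, 265 and 359. Median depth was lowest in G1 (14979 UMIs in control, 8771.5 in SP11) and highest in G2M (20823 and 11992), and the part of depth or free RNA in the calls was not tested. MYC was highest in G1 in both libraries, with 153 CPM in G1, 122 in S and 110 in G2M in control and 104, 80.8 and 72.4 CPM in SP11. For G2M against G1 its log2 ratio came to -0.48 (-0.62 to -0.34) in control, beside -0.52 (-0.77 to -0.27) in SP11. Between the libraries MYC was lower by a similar amount in each phase, at -0.56 in G1, -0.59 in S and -0.60 in G2M.

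MXD3 had the steepest profile over phases and the opposite slope to MYC. In control it was at 4.57 CPM in G1 (2.90 to 6.86), 8.17 in S (6.14 to 10.7) and 31.4 in G2M (27.6 to 35.6). In SP11 it was at 5.06 (2.53 to 9.05), 5.18 (2.90 to 8.55) and 12.4 (9.35 to 16.2). Control had a log2 ratio of G2M to G1 of 2.78 (2.16 to 3.46) and SP11 one of 1.29 (0.34 to 2.38), and with phases called in both libraries together the latter was 0.96 with an interval that included 0. The lower level of MXD3 in SP11 was seen in G2M cells, at -1.34 (-1.79 to -0.91), while the intervals in G1 (0.15, -1.04 to 1.24) and S (-0.66, -1.59 to 0.19) included 0. The library with the lower MXD3 held the larger share of G2M cells (42.1% against 34.7%).

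MXD4 and MXI1 were highest in G1 in control. MXD4 was at 16.9, 9.38 and 7.88 CPM in G1, S and G2M of control and at 20.7, 14.2 and 9.71 CPM in SP11, with log2 ratios of G2M to G1 of -1.10 (-1.60 to -0.61) and -1.09 (-1.73 to -0.46). MXI1 was at 66.2, 39.6 and 43.4 CPM in control, but at 26.2, 25.6 and 28.4 CPM in SP11. Its log2 ratio of SP11 to control was -1.34 (-1.77 to -0.93) in G1, -0.63 (-1.02 to -0.26) in S and -0.61 (-0.92 to -0.31) in G2M. The G1 excess of MXI1 in control, with G2M over G1 at -0.61 (-0.83 to -0.39), was not seen in SP11, where the ratio was 0.12 (-0.35 to 0.59).

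Of the remaining members, MLXIP was lowest in S in both libraries, with 42.6, 37.5 and 56.4 CPM in G1, S and G2M of control and 36.3, 20.7 and 40.4 CPM in SP11. G2M over S came to a log2 ratio of 0.59 (0.36 to 0.82) for control and of 0.96 (0.53 to 1.41) for SP11. S over G1 was -0.18 (-0.45 to 0.09) for MLXIP in control, an interval that included 0, and -0.81 (-1.32 to -0.31) in SP11. MAX was at 54.3 CPM in G1 and 69.2 CPM in G2M of control, and at 52.0 and 49.2 CPM in SP11. MNT and MLX had overlapping intervals over all phases in both libraries. Over the phases MYC UMIs per antagonist UMI went from 0.903 in G1 over 0.829 in S to 0.651 in G2M in control, and from 0.926 over 0.734 to 0.603 in SP11.

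**Figure D5:**
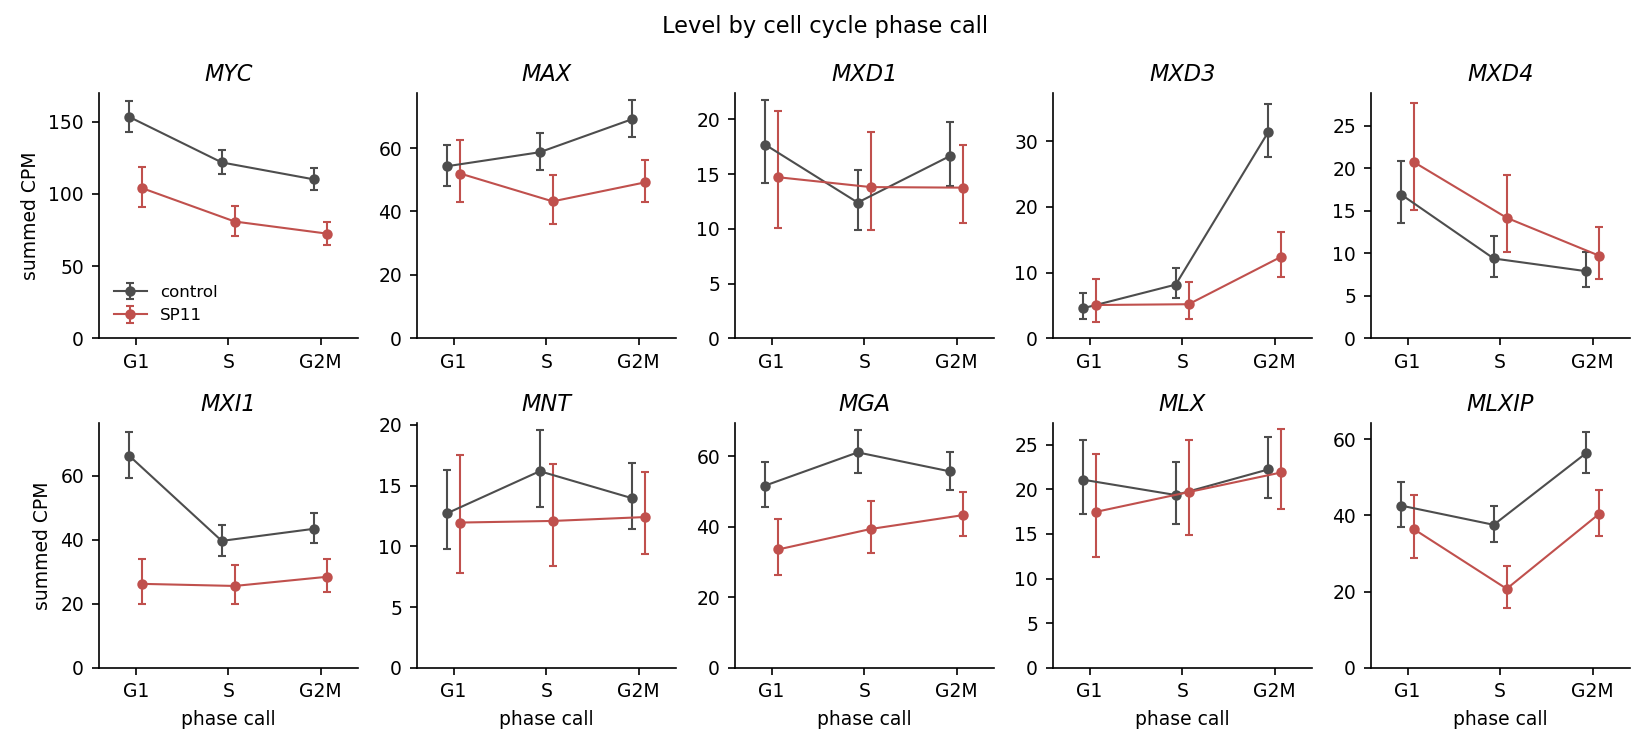
Summed CPM of each gene in cells called G1, S and G2M in control (grey) and SP11 (red), each panel with its own axis from 0 and exact Poisson 95% intervals. MYC and MXD4 decline from G1 to G2M in both libraries, MXD3 is highest in G2M (31.4 CPM in control, 12.4 in SP11), and MXI1 is highest in G1 in control but flat in SP11.

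Clusters were made in each library alone, with the members among the genes clustered, so their levels are a description. Each library gave 6 clusters, of which 1 (76 control cells with a median of 787.5 UMIs, 70 SP11 cells with a median of 1826 UMIs) was too shallow to compare. Over the other 5 control clusters MYC ranged from 82.0 CPM in cluster 1, led by histone genes, to 192 CPM (175 to 211) in cluster 3. Cluster 3 was led by DEFB1 and several noncoding transcripts, and it also had the highest MLXIP (83.9 CPM), MAX (82.6 CPM), MXD1 and MNT. In SP11 MYC ranged from 49.4 CPM in cluster 3, led by CXCL10 and histone genes, to 104 CPM in cluster 2. MXD3 ranged from 4.22 to 39.9 CPM in control, with its highest level in cluster 4, led by the mitotic genes PIF1, UBE2C and PLK1 among others and called G2M in all of its 124 cells.

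In the smallest SP11 cluster 2 antagonists were at their highest levels, with intervals that overlapped those of another cluster. Cluster 5 held 20 cells led by genes that include TDO2, MMP1, C1QA, FABP4 and S100A9, several of them known from macrophages. In these few cells MXD1 was at 53.8 CPM (30.1 to 88.7, from 15 UMIs) and MXD4 at 35.8 CPM (17.2 to 65.9, from 10 UMIs), the highest of the SP11 clusters for both, while MYC was at 60.9 CPM. In the other deep SP11 clusters MXD1 lay between 8.84 and 23.0 CPM (16.5 to 31.2 in cluster 2) and MXD4 between 9.55 and 17.5 CPM (13.1 to 22.8 in cluster 0). MXI1 (14.3 CPM), MNT (3.58 CPM), MGA (17.9 CPM) and MXD3 (3.58 CPM) were lowest of the deep SP11 clusters in cluster 5, from 4, 1, 5 and 1 UMIs. MAX was highest of them in cluster 5, at 71.7 CPM (43.8 to 111, from 20 UMIs). Without the cells of cluster 5 MXD1 was at -0.27 and MXD4 at 0.27 on the log2 scale between the libraries.

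Over these 10 deep clusters of both libraries the genes whose levels were most like that of MYC, by Pearson's r of log2(CPM + 1), were NEDD4L (0.963), FBXL20 (0.953), MTFMT (0.932), HIP1 (0.914) and UBE2E1 (0.913), of 4997 genes compared. For MXD3 they were ANLN (0.967), ARHGAP19 (0.965), GPSM2 (0.951), CKAP5 (0.939) and TOP2A (0.933). ANLN, GPSM2, CKAP5 and TOP2A have known roles in mitosis. The clusters of a library share its depth and its cells' cycle, and the correlations are a description over 10 points.

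Of 4 other members of the family, 3 were scarce. MYCN had 0 UMIs in both libraries, which limits it to 0.155 CPM (control) and 0.316 CPM (SP11). MYCL had 17 UMIs in control against 3 in SP11, and MLXIPL, the other glucose-responsive partner of MLX, had 1 against 0. TCFL5, a related E-box factor, was at 33.9 and 29.3 CPM.

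Genes that the network acts with or on were followed in lists, each with its median log2 ratio beside the -0.35 of all genes and its counts beside the 10.7% of all measured genes at least 1.5-fold higher and the 38.4% lower. The 42 listed MYC targets had a median of 0.41, with 14 at least 1.5-fold higher in SP11 and 2 (CCND2 and TERT) at least 1.5-fold lower. Their summed level was 12525 CPM in control against 17095 in SP11, opposite in direction to MYC. PA2G4, a growth-linked RNA-binding protein, was at 413 and 1041 CPM (log2 ratio 1.33), and BOP1, a factor of 60S ribosome assembly, at 46.7 and 104 CPM (1.16). CCND2, a G1 cyclin, was at 48.3 and 24.0 CPM (-1.01), and TERT, the catalytic part of telomerase, at 15.8 and 8.95 CPM (-0.82). Targets with an E-box in the promoter window had a median of 0.34 (19 genes) and those without one a median of 0.58 (15 genes).

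Of 14 genes known as repressed by MYC, 8 were measured, with a median of -0.53 and 4 at least 1.5-fold lower, a share near that of all genes. The 1 gene at least 1.5-fold higher was CDKN1A, an inhibitor of cyclin-dependent kinases named after its values were seen, which was counted 41 times in control but 71 times in SP11 and had a log2 ratio of 1.82. CDKN1B, a related inhibitor, was at 47.6 CPM in control and at 15.7 in SP11 (-1.60), and GADD45A, a stress gene, at 8.62 and 3.47 CPM (-1.31). CEBPA, a myeloid factor, was at 77.3 and 109 CPM (0.50), and ITGB1, an integrin, at 117 and 125 CPM (0.10). The median of the activated targets lay above that of all genes, and the median of the 8 measured repressed genes lay below it. Single repressed genes were as far apart as -1.60 and 1.82, so their median describes no shared direction.

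Cofactors of MYC had a median of 0.20 over 16 genes, with 2 at least 1.5-fold higher and 3 lower. SUPT5H and RUVBL2 were at 0.63 and 0.60, and the SWI/SNF subunit SMARCB1 and the TIP60 subunit EP400 at -0.97 and -0.63. Against its bin of intronic length EP400 was at -0.04. The SIN3 and histone deacetylase corepressors, which MXD proteins and MNT recruit, had a median of -0.02 over 14 genes, with HDAC2 at 148 CPM in control against 271 in SP11 (0.87) and BRMS1 at 0.89, against SAP30 at -0.70 and ARID4A at -0.45. The partners of MGA in its Polycomb complex had a median of 0.01 over 13 genes, with HDAC2 and WDR5 (0.56) highest and PCGF6 (-0.48) and CBX3 (-0.34) lowest.

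Genes of MYC protein turnover had a median of -0.28 over 17 measured genes, with 3 at least 1.5-fold higher and 3 lower. Among them FBXW7, the ubiquitin ligase subunit that marks phosphorylated MYC for degradation, was at 139 CPM in control and at 68.2 in SP11 (-1.03). USP36, a nucleolar deubiquitinase of MYC, was at 39.6 and 71.7 CPM (0.85), and PLK1, a mitotic kinase, at 63.9 and 140 CPM (1.13). FBXW7 has long introns and lay 0.20 below its bin of intronic length. Other proteins that bind MYC had a median of -0.20 over 12 genes. Among these TFAP4, an E-box factor that MYC induces, had 272 UMIs in control (14 CPM) and 20 in SP11 (2.11 CPM), a log2 ratio of -2.74 (-3.47 to -2.08). PIM1 and MYCBP were at 0.60 and 0.51, and SP1 at -0.42.

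In the list for the MLX branch 3 of 5 targets were measured, with a median of -0.58. TXNIP, its best known target, was at 17.2 CPM in control and at 18.6 in SP11 (0.11, -0.16 to 0.38), while PFKFB3 and HK2, both of glycolysis, were at -0.58 and -0.62. Against their bins of intronic length TXNIP was at -0.01, PFKFB3 at 0.01 and HK2 at -0.15, with a median of -0.01. Among genes of the cell cycle listed beside MXD3, E2F1 and E2F2 were at 0.69 and 0.51 and TOP2A at -0.22. E2F8, a repressor of the late cycle, was at 35.7 CPM in control and at 11.3 in SP11 (-1.66). Of the 7 measured genes of that list, E2F8 and TOP2A were below 0 on the log2 scale.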

How the data were processed

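Single-cell RNA was measured in 2 libraries, 1 per group, grouped by the labels' treatment field. The authors deposited raw UMI counts per gene and barcode, produced per the file headers by Cell Ranger 7.1.0 on a genome given as GRCh38 or hg38 in the processing notes of the submitters. The experiment in mice was not analysed here.

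Barcodes with at least 200 genes and at most 20% mitochondrial UMIs passed, which are the limits of the study's methods. Scrublet (scanpy 1.11.5) called 31 control and 27 SP11 doublets, which were kept in the main values. UMIs were summed over cells and divided by all UMIs (CPM). Intervals at 95% came from the split of a gene's UMIs between libraries (Clopper-Pearson), the Poisson distribution for CPM, the binomial for shares and the conditional odds ratio for ratios of genes, and a count of 0 allows 3 counts. All cover counting error only. Cells are not replicates, so no test was made. Phases and clusters came from Seurat 5.3.0 (2000 variable features, 10 components, resolution 0.5). Intronic length and positions came from GENCODE 44, matched by identifier for 12094 of 12128 measured genes.

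Alternatives were TMM factors (edgeR 4.0.16), DESeq2 1.42.0 size factors, totals without mitochondrially encoded genes, equal weight per cell, subtraction of the bin of intronic length, other cell filters, removal of doublets, equal weight per phase, joint phase calls, other sets of antagonists and depths of 2000 and 8000 UMIs. Removal of shared barcodes and of SP11 cluster 5, and the balance with bins subtracted or with equal weight per cell, were added after seeing the data. The members and lists were chosen with earlier results of these data known. The text names all members, from every other list the 2 highest and 2 lowest genes with 200 or more UMIs, and for MYC and MXD3 the 5 most alike genes with 1000 or more UMIs. One gene that the rule takes is not reported here. Outside this rule CDK4, SRM, ODC1 and LDHA were chosen as known targets with an upstream E-box, CDKN1A was named after its values were seen, and others identify a cluster, the cells of a library, an overlapping gene or a scarce family member. Leading genes of clusters had 20 or more UMIs there.

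Of B-lineage markers 2 of 6 and of erythroid markers 1 of 6 were measured. Counts for SP11 against control were also simulated from the Poisson distribution, on 12128 genes with 200 changed. The 95% interval held the true value for 96.5% of the changed genes. A 2-fold difference was estimated at a median log2 ratio of 1.00 and a 4-fold one at 2.02. The intervals assume the same distribution, so this checks the calculation only, not whether they fit these libraries.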

Additional observations from a re-analysis of the deposited data

How the results depend on the processing

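Of 184 alternative values 147 stayed within their counting interval (counts of members within 1.5 times), 34 moved further and 3 reversed, where a reversal is a change of sign of a value whose own interval excludes 0. The 147 include the counts of members without a minimum of UMIs, which could not move because every member passed the minimum. The log2 ratio of MYC was -0.26 with TMM factors, -0.24 with DESeq2 size factors and -0.73 with its bin of intronic length subtracted, and -0.67 to -0.58 under the other 9 alternatives. The number of members at least 1.5-fold lower was 1 with TMM and 1 with DESeq2 factors, where 3 were lower by CPM, and the number at least 1.5-fold higher was 1 with each, where 0 were by CPM. These factors move all genes by 0.34 and 0.36 on the log2 scale. MAX reversed to 0.0012 with DESeq2 factors and to 0.23 with its bin subtracted, and MGA to 0.19 with its bin subtracted. Another 7 values changed sign for genes whose intervals include 0: with TMM and DESeq2 factors MXD1 (0.20 and 0.22), MNT (0.11 and 0.13) and MLX (0.29 and 0.31), and with its bin subtracted MXD1 (0.19). MXD3 stayed between -1.10 and -0.59 and MXD4 between 0.27 and 0.70. The balance of MYC against antagonists was -0.68 with the bin of intronic length subtracted from each gene and between -0.24 and -0.04 in the other 15 alternatives. The share of cells with a MYC UMI followed depth by construction: at 2000 UMIs it was 22.6% in control and 13.2% in SP11, at 8000 UMIs 56.7% and 40.8%, and without thinning 71.8% and 47.7%. No paired analysis was possible because each group had 1 library, so no library could be left out either.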

Other observations

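Within each library, cells were set by their MYC UMIs after thinning to 4400 UMIs, and the summed level of the 42 MYC targets was read in each set. In control it was 12228 CPM in the 596 cells without a MYC UMI, 12692 CPM in the 258 cells with 1 and 13023 CPM in the 109 cells with more. In SP11 it was 16778 CPM in 549 cells, 17429 CPM in 163 cells and 17488 CPM in 57 cells. Each SP11 set thus lay above each control set, whatever its MYC count. G1 cells made up 29.7%, 35.7% and 30.3% of the control sets and 23.7%, 27.6% and 38.6% of the SP11 sets, and the part of phase in these levels was not tested.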
